A study of Saccharomyces cerevisiae with 10 samples.

Results

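The 33 genes described here encode the proteasome of budding yeast, Saccharomyces cerevisiae, together with RPN4, the transcription factor that drives its genes. They were chosen by name and function, no measured value enters the rule, and earlier results of these data were known when the list was drawn up. They comprise 14 subunits of the 20S core, the 6 ATPases RPT1 to RPT6, 12 RPN subunits of the regulatory particle and RPN4. All 33 were found among the 5373 genes listed in at least 1 of the 5 deposited tables, and all 33 were among the 4964 genes listed in every table. The study asked whether the supply of a transfer RNA (tRNA) sets the rate of translation, and from each of 5 strains 1 library was made of footprints and 1 of mRNA. A ribosome footprint is the stretch of mRNA that a ribosome shields from nuclease, so that footprints per codon report how densely ribosomes sit on a gene. All strains are of the S288C background. Wild type (WT) carried no plasmid. In ACA-K, 3 of the 4 gene copies of the threonine tRNA tT(UGU), which reads ACA codons, had been deleted and replaced by genes for resistance to nourseothricin, kanamycin and hygromycin B. WT-URA was wild type with the multicopy URA plasmid pRS426. AGG-OE carried on this plasmid an extra source of tR(CCU)J, the arginine tRNA that reads AGG codons, and AGG-QC carried tR(UCU)B with its anticodon altered to CCU, so that a different tRNA body reads AGG. Each tRNA mutant was compared with its own control, ACA-K with WT and both AGG strains with WT-URA, and the 2 AGG comparisons therefore share 1 control library of each kind. The 2 controls differ in the plasmid. The study names rich medium for its wild-type dataset and selection for the URA marker when the AGG-OE plasmid was introduced. It does not name the medium in which WT-URA was grown. Effects of the plasmid and of a difference in medium between the controls therefore cannot be told apart. With 1 library of each kind per strain there was no replicate, so no test of a difference between strains was possible and no p-value is given.

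The proteasome is the main protease for proteins tagged with ubiquitin. Its barrel-shaped core holds the cutting sites on the inside and is closed by gated rings. A regulatory particle at the end of the barrel receives the tagged protein, removes the ubiquitin, unfolds the chain with a ring of ATPases and feeds it into the core. Rpn4 binds the promoters of most proteasome genes and activates them, and is itself destroyed by the proteasome within minutes of its synthesis, a feedback loop that ties the supply of proteasomes to the load on them. Each subunit is present once in its ring or regulatory particle.

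The footprint libraries held 29706058 footprints in WT, 8552107 in WT-URA, 21855176 in ACA-K, 6011287 in AGG-QC and 9127829 in AGG-OE. The footprint level used throughout is the number of footprints per 1000 codons of a gene per 1000000 footprints over the genes listed in all 5 tables. The mRNA level was computed in the same way from the deposited mRNA signal. The unit of this signal is not given in the sources used here, so its counting error was not computed and mRNA levels carry no interval. Translational efficiency (TE) is the ratio of the footprint level to the mRNA level. Every member had at least 722 footprints in every library. URA3, the marker of the plasmid, had 137431 footprints in WT-URA, 18950 in AGG-QC and 60442 in AGG-OE and was not listed for WT or ACA-K, which separates strains with the plasmid from those without it but not the strains within each set. The median gene had 4.68% of its footprints on its first 20 codons in WT and 4.85% in ACA-K, against 13.9% in AGG-OE, 13.3% in AGG-QC and 16.5% in WT-URA, and the members had alike shares, with medians of 4.75%, 4.77%, 16.4%, 13.2% and 16.8% in the same order. This split follows the plasmid, and its part in any difference between WT-URA and WT was not tested.

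The 33 genes together took 0.866% of footprints in WT, 0.911% in WT-URA, 0.901% in ACA-K, 1.09% in AGG-QC and 0.898% in AGG-OE. Their share of the mRNA signal was 1.12%, 1.30%, 1.22%, 1.44% and 1.28% in the same order. The share was thus larger in mRNA than in footprints in all 5 strains, and AGG-QC had the largest share of both. This does not mean a TE below that of most genes. In WT the median TE was 0.72 over the 32 subunits and 0.57 over all genes with at least 100 footprints. It was 0.88 over the genes covered as deeply as the members, and the order was the same in every other library. In a bulk culture, fewer cells that make an RNA and less of it per cell cannot be told apart.

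RPN4 (YDL020C) had the lowest footprint level of the 33 genes in every library. Its footprint level was 159.9 in WT, 175.9 in WT-URA, 156.4 in ACA-K, 244.1 in AGG-QC and 150.0 in AGG-OE. The other libraries lay close together and AGG-QC stood above them. Its mRNA level varied less, with 281 in WT, 309 in WT-URA, 271 in ACA-K, 334 in AGG-QC and 299.8 in AGG-OE. The TE of RPN4 was 0.57 in WT, 0.57 in WT-URA, 0.58 in ACA-K, 0.73 in AGG-QC and 0.50 in AGG-OE, which puts most of the gap between AGG-QC and the other strains on the side of footprints. The median core subunit had a footprint level 5.50 times that of its activator in WT, 5.23 times in WT-URA, 5.57 times in ACA-K, 4.34 times in AGG-QC and 5.86 times in AGG-OE. RPN4 also had the fewest footprints of the 33 genes, from 2513 in WT to 722 in AGG-OE, so its values carry the widest counting intervals. In AGG-QC the 95% exact Poisson interval of its footprint level ran from 227 to 262, and in WT-URA from 164 to 189, so the intervals of these libraries did not meet. Intervals here cover counting error only.

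The 7 alpha subunits form the outer rings of the core and its gate. In WT their footprint levels were 814 for SCL1 (YGL011C), 984 for PRE8 (YML092C), 864 for PRE9 (YGR135W), 953 for PRE6 (YOL038W), 909 for PUP2 (YGR253C), 731 for PRE5 (YMR314W) and 794 for PRE10 (YOR362C). The 7 beta subunits form the inner rings. Of these, PRE3 (YJL001W), PUP1 (YOR157C) and PRE2 (YPR103W) carry the caspase-like, trypsin-like and chymotrypsin-like cutting sites, and their footprint levels in WT were 909, 1081 and 784. The non-catalytic beta subunits had footprint levels in WT of 895 for PUP3 (YER094C), 824 for PRE1 (YER012W), 1052 for PRE7 (YBL041W) and 802 for PRE4 (YFR050C). All 14 core subunits thus lay within a 1.48-fold range, from PRE5 at the bottom to PUP1 at the top.

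The 6 ATPases were spread more widely. Their footprint levels in WT were 1018 for RPT1 (YKL145W), 904 for RPT2 (YDL007W), 486 for RPT3 (YDR394W), 686 for RPT4 (YOR259C), 729 for RPT5 (YOR117W) and 757 for RPT6 (YGL048C). RPT1 was the highest and RPT3 the lowest ATPase in all 5 libraries. In AGG-QC, AGG-OE and WT-URA, RPT1 stood at 1470, 1150 and 1213, and RPT3 at 652, 505 and 501.

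The base of the regulatory particle also holds the large scaffold subunits RPN1 (YHR027C) and RPN2 (YIL075C) and the ubiquitin receptors RPN10 (YHR200W) and RPN13 (YLR421C), whose footprint levels in WT were 625, 402, 841 and 1006. RPN2 was the lowest of the 32 subunits in WT, WT-URA, AGG-QC and AGG-OE, at 402, 419, 549 and 448, and stood at 487 in ACA-K, where RPN9 at 341 and RPT3 at 485 lay below it. RPN1 had the highest TE of the 32 subunits in every library, with 1.21 in WT, 1.21 in WT-URA, 1.13 in ACA-K, 1.44 in AGG-QC and 1.29 in AGG-OE, and the lowest mRNA level of them in every library, between 507 in WT-URA and 556 in AGG-QC. The mRNA level is the divisor of TE, so low mRNA and high TE are linked by arithmetic in RPN1. RPN2, its partner in size, had a TE of 0.69 in WT.

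The lid contains RPN11 (YFR004W), the enzyme that removes ubiquitin from the substrate, and RPN8 (YOR261C), which pairs with it and has no such activity. Their footprint levels in WT were 703 and 834. The scaffold subunits of the lid had footprint levels in WT of 482 for RPN3 (YER021W), 870 for RPN5 (YDL147W), 769 for RPN6 (YDL097C), 709 for RPN7 (YPR108W), 419 for RPN9 (YDR427W) and 586 for RPN12 (YFR052W). The plot of levels by gene and strain shows that the order among the subunits was largely kept between strains. Across the 32 subunits, Spearman's rho of the footprint level with that in WT was 0.94 for WT-URA, 0.74 for ACA-K, 0.83 for AGG-QC and 0.86 for AGG-OE, a description across genes that share a library and are not independent replicates.

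**Figure D1:**
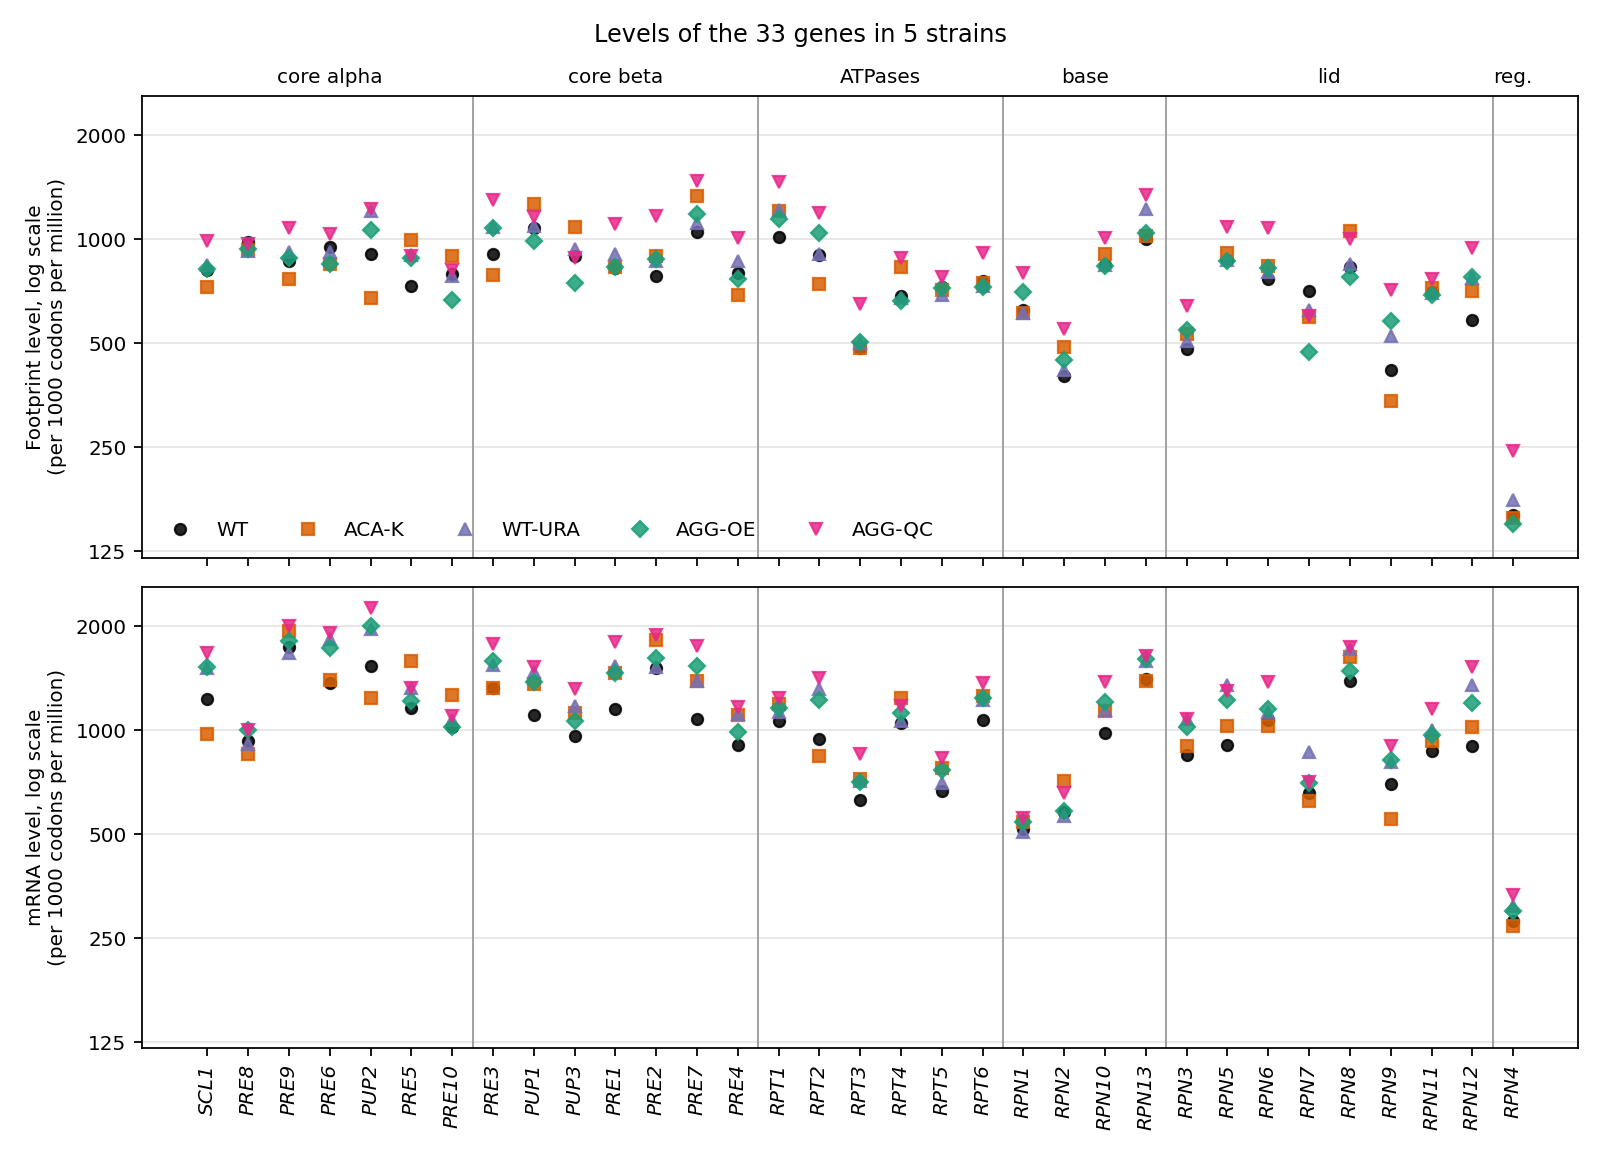
Footprint levels (top) and mRNA levels (bottom) of the 33 genes, per 1000 codons per 1000000 on a log axis, with 1 point per strain and 1 library behind each point; grey lines separate the subunit groups. RPN4 lies below all subunits in both panels, and AGG-QC gives the highest footprint level in 26 of the 33 genes, as it does in 52.1% of all genes.

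Within the core, footprint levels were closer together than mRNA levels. In WT the mRNA levels of the 14 core subunits ran from 905 in PRE4 to 1743 in PRE9, a 1.93-fold range, against the 1.48-fold range of their footprints. The standard deviation (SD) of the log2 level over the 14 core subunits was 0.17 for footprints and 0.29 for mRNA in WT, 0.18 and 0.31 in WT-URA, 0.30 and 0.32 in ACA-K, 0.23 and 0.36 in AGG-QC and 0.22 and 0.34 in AGG-OE. For comparison, over the 4916 genes with at least 100 footprints in WT the SD of the log2 level was 2.24 for footprints and 1.75 for mRNA. Among the alpha subunits the footprint SD was the smaller in all 5 strains, at 0.15 against 0.32 in WT. Among the beta subunits it was the smaller in 4 of 5 strains, the exception being ACA-K with 0.36 for footprints and 0.24 for mRNA. The smaller footprint SD was not particular to the core. Over all 32 subunits it was the smaller in every strain, at 0.37 against 0.42 in WT, and so it was in the RPN subunits of the base, at 0.58 against 0.67 in WT. In the lid the footprint SD was the smaller in the 3 plasmid strains but not in WT, with 0.38 for footprints and 0.34 for mRNA, nor in ACA-K, with 0.51 and 0.48. Among the ATPases it was the larger in every strain, at 0.37 against 0.35 in WT. The result for the core depended on the first codons. With the first 100 codons of each gene left out, the footprint SD of the core was 0.27 in WT, 0.31 in WT-URA, 0.40 in ACA-K, 0.41 in AGG-QC and 0.38 in AGG-OE, which is below the mRNA SD only in WT.

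PRE9, a subunit of the alpha ring, showed the gap between the measures most plainly. Its mRNA level was 1743 in WT, 1672 in WT-URA, 1935 in ACA-K, 2002 in AGG-QC and 1818 in AGG-OE, among the highest of the core in each library, while its footprint level was 864, 920, 766, 1077 and 882 in the same order. Its TE was the lowest of the 32 subunits in 4 of the 5 strains, at 0.50 in WT, 0.40 in ACA-K, 0.54 in AGG-QC and 0.49 in AGG-OE. PRE8, another alpha subunit, had the highest TE of the core in every library, with 1.06 in WT, 1.02 in WT-URA, 1.10 in ACA-K, 0.97 in AGG-QC and 0.94 in AGG-OE, and its mRNA level of 931 in WT was close to the lowest of the core. Across the 14 core subunits, Spearman's rho of footprint level with mRNA level was -0.07 in WT, 0.31 in WT-URA, 0.18 in ACA-K, 0.66 in AGG-QC and 0.45 in AGG-OE, and across all 32 subunits it was 0.62, 0.71, 0.66, 0.77 and 0.74 in the same order. These values describe genes within 1 pair of libraries and have no p-value.

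**Figure D2:**
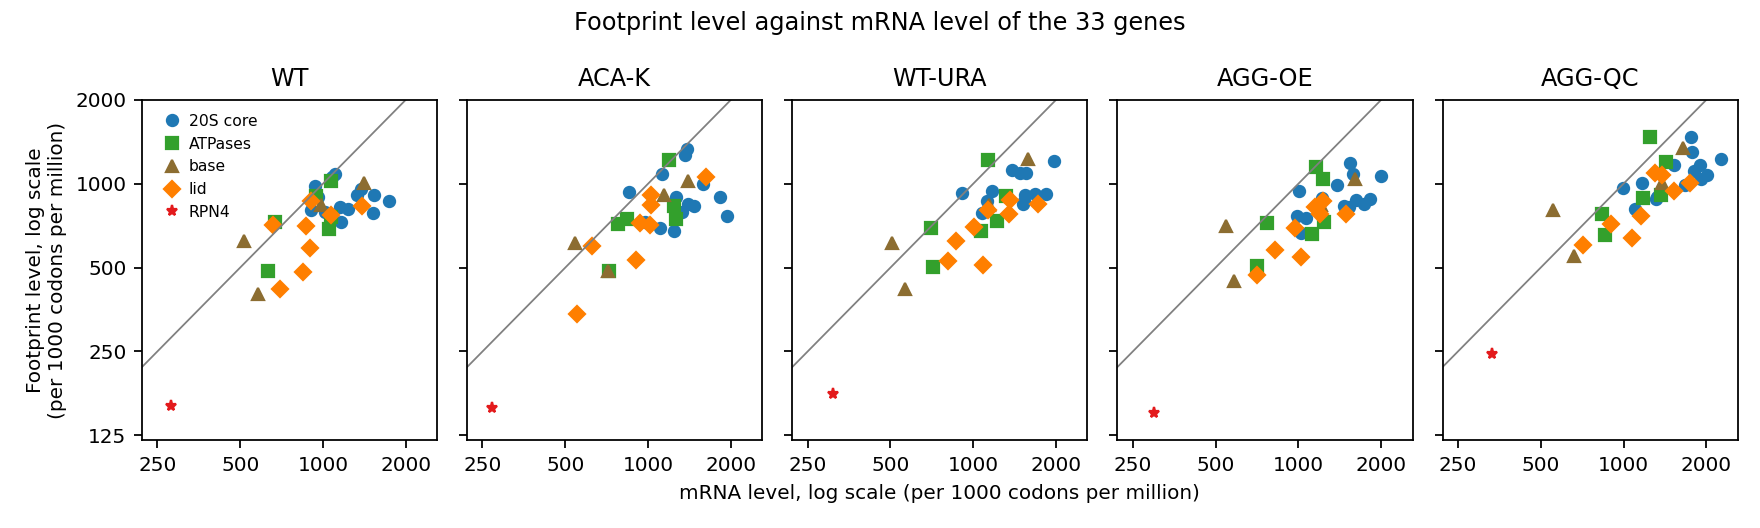
Footprint level against mRNA level (both per 1000 codons per 1000000, log axes) for the 33 genes in each strain, with colour and shape by subunit group and the line of equal levels in grey. The 14 core subunits form a flat band in WT, between 731 and 1081 in footprint level over mRNA levels from 905 to 1743, and RPN4 stands alone at the lower left.

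In ACA-K, where the tRNA for ACA codons was depleted, no member was as much as 1.5-fold above or below WT in footprint level, mRNA level or TE. Over the 4814 genes with at least 100 footprints in both strains, 2.83% lay past 1.5-fold in footprint level, 2.97% in mRNA level and 3.68% in TE, so that about 1 of 33 genes would lie there at the rate of all genes. The median log2 difference (ACA-K minus WT) of the 33 members was 0.03 in footprint level, 0.18 in mRNA level and -0.06 in TE, beside -0.03, -0.07 and 0.03 over all genes. The mRNA level was above WT in 24 of the 33 members and above the shift of the median gene in 27. The log2 differences of the middle 50% of all genes in mRNA level ran from -0.22 to 0.08. Centred on the median gene, the median mRNA difference was 0.25. The 1518 genes as deeply covered as the members had medians of 0.002 in footprint level, 0.01 in mRNA level and -0.02 in TE. Of these genes, 2.11%, 1.25% and 1.19% lay past 1.5-fold in the same order, a lower rate than that of all genes. Among the core subunits the median log2 difference was -0.03 in footprints and 0.24 in mRNA, and their TE was below WT in 11 of 14. In TE the middle 50% of all genes ran from -0.13 to 0.19.

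Single subunits of the same ring differed in opposite directions between ACA-K and WT. PRE5 had a footprint level of 731 in WT and 995 in ACA-K, the largest positive difference of the 33 genes, with a log2 difference of 0.44 and a 95% counting interval from 0.39 to 0.50. PUP2, in the same alpha ring, had a footprint level of 909 in WT and 675 in ACA-K, the largest negative one, at -0.43 with an interval from -0.49 to -0.37. In both genes the mRNA level differed alike, by 0.45 in PRE5 and -0.31 in PUP2 on the log2 scale, and TE by -0.01 and -0.12. PRE5 also had the highest mRNA difference of the members and RPN9 the lowest, at -0.34. RPN9, a lid subunit, had an mRNA level of 699.6 in WT and 553 in ACA-K, and its footprint level was 419 and 341.

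The mRNA and TE differences had opposite signs in 24 of the 33 members in ACA-K, as they did in 67.0% of all genes. The mRNA level is the divisor of TE, so these differences share a term and opposite signs arise in part from it. Opposite signs were found in 22 members in AGG-OE minus WT-URA, 11 in AGG-QC minus WT-URA and 25 in WT-URA minus WT. The shares of all genes were 64.6%, 71.5% and 48.7% in the same order. Signs were taken about 0 and not about the median gene. In AGG-QC minus WT-URA the median gene lay at -0.03 in mRNA level and 0.10 in TE, and the median member at 0.15 and 0.12. The counts thus depend on the scaling and cannot be read as a trait of the members. In ACA-K minus WT, PRE4, a non-catalytic beta subunit, had the lowest TE difference at -0.51, with a TE of 0.89 in WT and 0.62 in ACA-K. Its mRNA level was 905 in WT and 1108 in ACA-K, while its footprint level was 802 and 691. SCL1 had the highest TE difference, at 0.18. The counting interval of the footprint difference lay above 0 in 15 members and below 0 in 10, and excluded 0 in 59.2% of all genes, which at this depth covers much of the genome and takes no account of variation between cultures.

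In AGG-OE, which carried extra copies of the AGG-reading arginine tRNA, the members stayed close to WT-URA. None lay past 1.5-fold in footprint level, mRNA level or TE, where 4.29%, 4.1% and 1.98% of the 4542 genes compared did. The median log2 difference (AGG-OE minus WT-URA) of the members was -0.02 in footprint level, 0.01 in mRNA level and -0.04 in TE, against -0.10, -0.09 and 0.00 over all genes. Set against the median gene the members' medians were 0.08 in footprint level and 0.10 in mRNA level, which turns the sign of the footprint value. The 1638 genes as deeply covered as the members had medians of -0.03 in footprint level and -0.02 in mRNA level, close to those of the members. RPN7, a lid subunit, was lowest in both footprints and mRNA. Its footprint level was 624 in WT-URA and 472 in AGG-OE, a log2 difference of -0.40 with a counting interval from -0.49 to -0.31, and its mRNA difference was -0.29. RPT2, an ATPase whose tail helps to open the gate of the core, was highest in footprints and in TE. Its footprint level was 905 in WT-URA and 1041 in AGG-OE, a difference of 0.20 with an interval from 0.14 to 0.27, and its TE difference was 0.31. PRE7 was highest in mRNA at 0.15 and the ubiquitin receptor RPN13 lowest in TE at -0.25. RPN4 itself was lower in footprints, by a log2 difference of -0.23 with an interval from -0.38 to -0.08. The counting interval lay above 0 in 6 members and below 0 in 12, and excluded 0 in 51.1% of all genes.

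In AGG-QC, whose plasmid tRNA reads AGG with another tRNA body, footprint levels of the proteasome genes were higher than in WT-URA in 30 of 33 members, the exceptions being PUP3, RPN7 and PRE5. The median gene was higher too, and the log2 differences of the middle 50% of all genes ran from -0.07 to 0.23. None was past 1.5-fold in footprint level, mRNA level or TE, where 3.54%, 4.92% and 5.58% of the 4411 genes compared were. The median log2 difference (AGG-QC minus WT-URA) of the members was 0.26 in footprint level, 0.15 in mRNA level and 0.12 in TE, beside 0.08, -0.03 and 0.10 over all genes. Against the median gene the members were thus higher by 0.18 in both footprint and mRNA levels, and by 0.02 in TE. The TE value depends on the genes taken as reference. The 1336 genes as deeply covered as the members had medians of 0.07 in footprint level, 0.01 in mRNA level and 0.01 in TE. Of the 33 members, 27 were above the median gene in footprint level, 31 in mRNA level and 18 in TE. The counting interval of the footprint difference lay above 0 in 26 members and below 0 in none, and excluded 0 in 46.7% of all genes.

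The groups of the particle were not equally high in AGG-QC. The median log2 difference in footprint level was 0.20 in the 14 core subunits, 0.35 in the 6 ATPases, 0.32 in the 4 RPN subunits of the base and 0.30 in the 8 lid subunits. Within the core it was 0.06 in the alpha and 0.26 in the beta subunits. In mRNA level the same groups had medians of 0.15, 0.16, 0.18 and 0.09, and in TE 0.05, 0.15, 0.13 and 0.22. RPN4 had the largest footprint difference of the 33 genes, 0.47 with an interval from 0.33 to 0.62, of which 0.11 was in mRNA level and 0.36 in TE. After it came RPN9, with a footprint level of 527 in WT-URA and 714 in AGG-QC, and the catalytic subunit PRE2, with 865 and 1169, each with a log2 difference of 0.44. PUP3 was the lowest in both footprint level and TE, at -0.09 with an interval from -0.20 to 0.02 and at -0.25. PRE7 was highest in mRNA level at 0.34 and RPN7 lowest at -0.28. RPN5 was highest in TE at 0.38, with a TE of 0.64 in WT-URA and 0.84 in AGG-QC. AGG-QC had the smallest footprint library of the 5 and fewer URA3 footprints than the other plasmid strains, and the part of either in these values was not tested.

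WT-URA and WT, the 2 controls, differed far more across the genome than any mutant did from its control, yet no member lay past 1.5-fold, where 42.4% of the 4621 genes compared did in footprint level, 34.6% in mRNA level and 9.2% in TE. Of the 1400 genes as deeply covered as the members, 26.6% were past 1.5-fold in footprint level. The median log2 difference (WT-URA minus WT) of the members was 0.06 in footprint level, 0.21 in mRNA level and -0.15 in TE. The median gene was itself shifted by 0.36 in footprint level and 0.28 in mRNA level on this scale. Relative to it the members' medians were -0.30 in footprint level, -0.07 in mRNA level and -0.20 in TE, so that the sign of the first pair depends on the scaling, while 31 of the 33 members were below the median gene in footprint level. Relative to the 1400 deeply covered genes, whose median footprint difference was 0.07, the members' median was nearly level. These 1400 genes had medians of 0.03 in mRNA level and 0.01 in TE, where the members had 0.21 and -0.15. The sign of the members' mRNA value thus also depends on the genes taken as reference. The counting interval of the footprint difference lay above 0 in 16 members and below 0 in 3, and excluded 0 in 85.8% of all genes.

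The mRNA level was above WT in 29 of the 33 members in WT-URA, and above the shift of the median gene in 14. The log2 differences of the middle 50% of all genes in mRNA level ran from -0.06 to 0.62. RPN12, a lid subunit, had the largest mRNA difference, with an mRNA level of 899 in WT and 1348 in WT-URA and a log2 difference of 0.58, just under the threshold, and a footprint difference of 0.41. RPN5 had an mRNA level of 908 in WT and 1354 in WT-URA, while its footprint level was 870 and 873, so its TE was 0.96 and 0.64. RPN7 had the lowest footprint difference, -0.18, and the lowest TE difference, -0.58, again just inside the threshold, with a TE of 1.08 in WT and 0.72 in WT-URA. PUP2 had the highest footprint difference, 0.41 with an interval from 0.34 to 0.47, PRE9 the lowest mRNA difference, -0.06, and RPT1 the highest TE difference, 0.17. The RPN4 footprint difference was 0.14 with an interval from 0.02 to 0.25, its mRNA difference also 0.14, and its TE was the same in both controls. The count of 0 in TE depended on the processing, with 2 members past 1.5-fold when centred on the median gene, 3 with the first 100 codons left out, 4 with a pseudo-count of 1 per codon and 6 with both of the latter. The median TE difference was then -0.20, -0.22, -0.24 and -0.40.

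**Figure D3:**
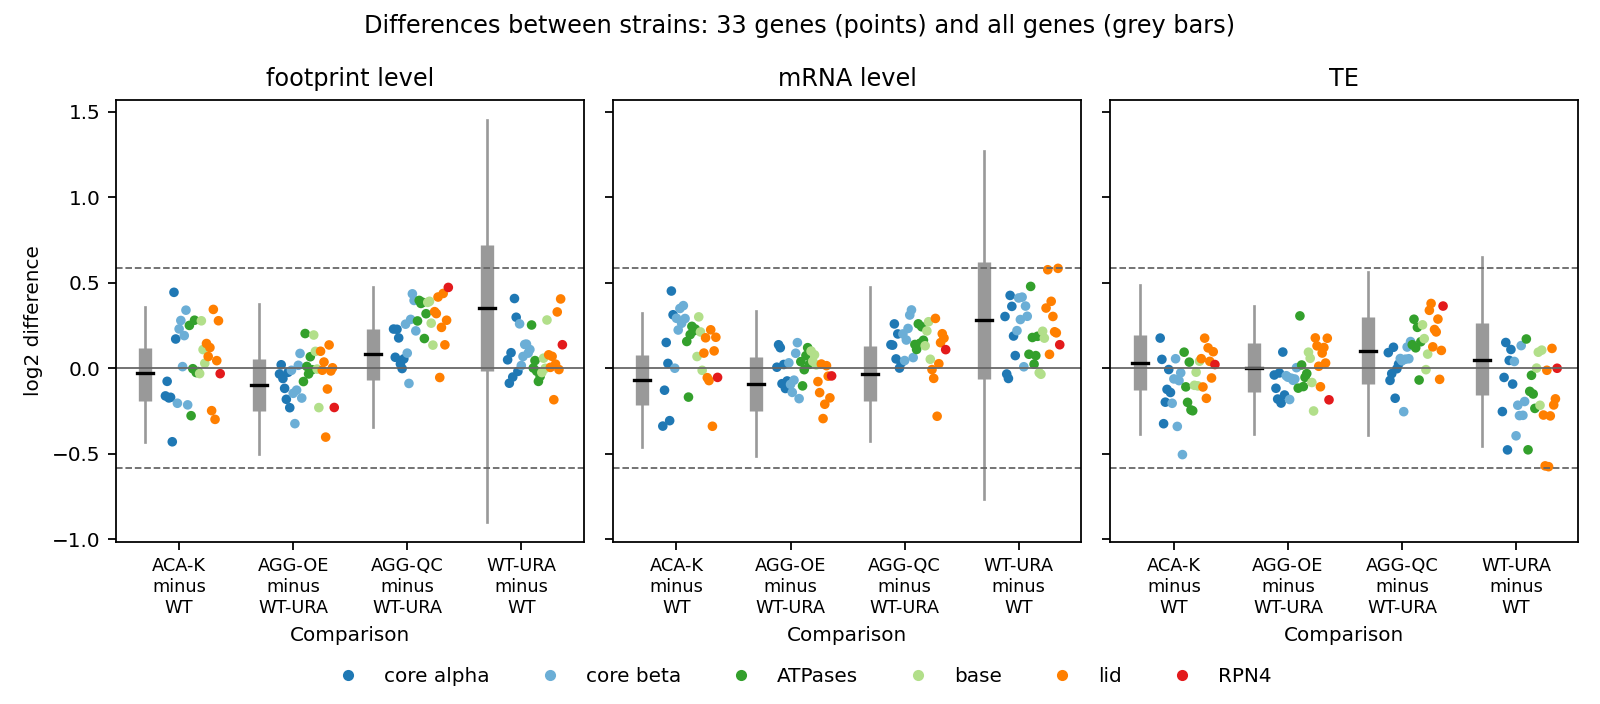
Log2 differences between strains in footprint level, mRNA level and TE for the 33 genes (points, coloured by group) beside all genes compared (thick grey bar, the middle 50%; thin line, 5th to 95th percentile; black tick, median), with dashed lines at 1.5-fold. All points lie within the dashed lines, and in AGG-QC minus WT-URA most footprint points lie above 0, with RPN4 on top at 0.47.

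Over the 5 strains together, the footprint level of the median member varied 1.36-fold between its lowest and highest library, beside 1.68-fold for the median of the 4334 genes with at least 100 footprints in all libraries and 1.52-fold for the 1170 as deeply covered as the members. It varied by less than 1.5-fold in 26 of 33 members, in 35.6% of all these genes and in 48.4% of the deeply covered ones. The mRNA level of the median member varied 1.34-fold and its TE 1.26-fold, beside 1.57-fold and 1.40-fold for all genes and 1.45-fold and 1.32-fold for the deeply covered ones. PRE8 was the most even in footprint level, with 984 in WT, 926 in WT-URA, 934 in ACA-K, 969 in AGG-QC and 940 in AGG-OE, a 1.06-fold range. RPN9 was the least even, with 419, 527, 341, 714 and 579 in the same order, a 2.09-fold range in which ACA-K was lowest and AGG-QC highest. PUP2 followed with 909, 1207, 675, 1228 and 1064, a 1.82-fold range, with the same strains at the ends. AGG-QC gave the highest footprint level in 26 of the 33 members and the highest mRNA level in 25, and it did so in 52.1% and 34.2% of the 4334 genes and in 37.4% and 31.3% of the 1170 deeply covered ones. Among the members the lowest footprint level fell in ACA-K in 10, in AGG-OE in 11 and in WT in 10. The shares of all genes by lowest library are not given here, so these counts cannot be read as particular to the members.

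The footprints of each gene were counted codon by codon, which shows where along the coding sequence ribosomes were caught. Past the first 20 codons, the codon with the most footprints held 9.25 times the mean per codon of that stretch in the median member in WT and 15.3 times in ACA-K, beside 10.2 and 16.9 times in the genes covered as deeply. The highest codon stood higher over its mean in ACA-K than in WT in 30 of 33 members. The share of all genes in which it did so is not given here, and the median of the equally covered genes was also higher in ACA-K. The median member had no footprint on 2.31% of its codons in WT and on 8.73% in ACA-K. In AGG-QC, AGG-OE and WT-URA the median over the members was 10.8, 11.7 and 11.1. In 2 members, SCL1 and RPN11, the same codon was highest in all 5 libraries, and the share of all genes where this holds is not given here. Codon 62 of SCL1 held 561 footprints in WT, 99 in WT-URA, 668 in ACA-K, 94 in AGG-QC and 78 in AGG-OE. This is 9.22% of the gene's footprints in WT, with a 95% exact binomial interval from 8.50% to 9.97%, and 16.7% in ACA-K, with an interval from 15.6% to 17.9%. Codon 251 of RPN11 held 215, 90, 352, 44 and 93 footprints in the same order, 3.37% of the gene in WT and 7.28% in ACA-K. The codon sequences themselves were not analysed here, so which codon stands at these positions is not given.

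Several other peaks, picked as the highest codon of the gene in WT, were shared with ACA-K and smaller in the plasmid strains. Codon 253 of RPT1 held 6.07% of the gene's footprints in WT and 9.93% in ACA-K, but 2.62% in WT-URA, 1.59% in AGG-QC and 2.67% in AGG-OE. Codon 262 of RPT2 held 5.52% in WT, 2.02% in WT-URA, 12.4% in ACA-K, 0.87% in AGG-QC and 1.16% in AGG-OE. Codon 135 of the catalytic subunit PUP1 held 3.24% in WT and 11.8% in ACA-K and no more than 1.04% in the plasmid strains. The highest codon was the same in WT and ACA-K in 12 of 33 members and the same in the 3 plasmid libraries in another set of 12, which share SCL1, PRE8, PUP1 and RPN11 with the former, although the codon itself is shared only in SCL1 and RPN11. How often this holds over all genes is not given here, so these counts cannot be read as particular to the members. Other codons held a larger share in the plasmid strains. Codon 71 of PRE1 held 5.36% in WT, 8.64% in WT-URA, 3.90% in ACA-K, 9.60% in AGG-QC and 11.8% in AGG-OE.

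**Figure D4:**
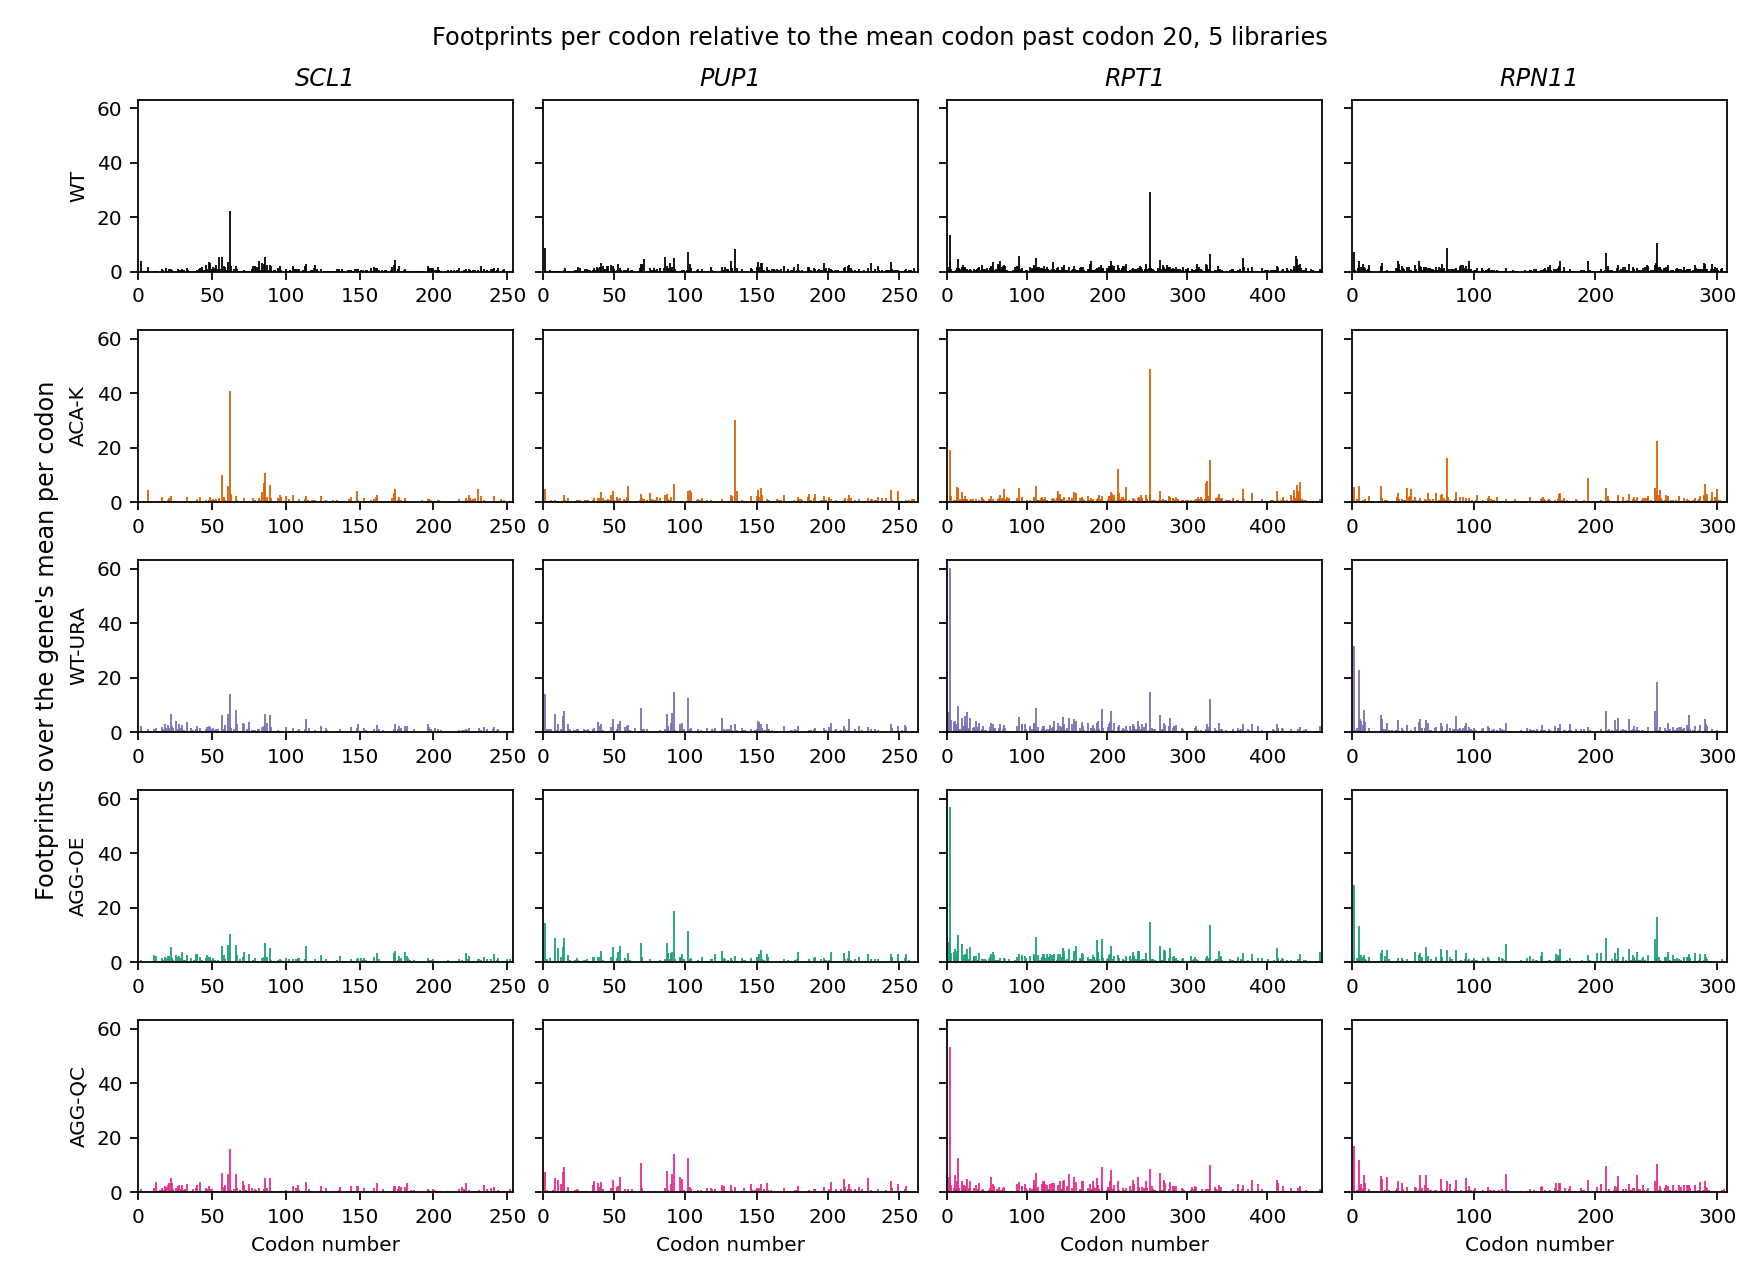
Footprints at each codon divided by the mean per codon past codon 20, along SCL1, PUP1, RPT1 and RPN11 (columns) in the 5 libraries (rows), on 1 linear scale. Codon 62 of SCL1 and codon 251 of RPN11 are the highest of their genes past codon 20 in all libraries. They stand at 10.3 (AGG-OE) to 40.8 (ACA-K) and 10.5 (AGG-QC) to 22.6 (ACA-K) times the mean. Codon 135 of PUP1 stands at 30.0 times the mean in ACA-K and 8.31 times in WT, and codon 4 of RPT1 at 53.5 to 60.2 times the mean in the plasmid strains.

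On the first 20 codons the plasmid strains differed from WT and ACA-K at single positions of the members. Codon 4 of RPT1 was the highest early codon in all 5 libraries and held 392 footprints in WT, 515 in WT-URA, 474 in ACA-K, 398 in AGG-QC and 498 in AGG-OE. These are 2.78% and 3.85% of the gene's footprints in WT and ACA-K and 10.8% in WT-URA, 9.71% in AGG-QC and 10.2% in AGG-OE. Codon 6 of PRE4 likewise held 2.94% and 3.57% without the plasmid, and 14.4% in WT-URA, 15.0% in AGG-QC and 16.4% in AGG-OE. PRE5 had the largest share of the members on its first 20 codons in every library but WT, where PRE4 had 12.2%, and its share was 10.1% in WT, 30.8% in WT-URA, 21.6% in ACA-K, 30.8% in AGG-QC and 36.8% in AGG-OE. The higher footprint level of PRE5 in ACA-K thus came with more footprints at the start of the gene, and at its codon 16 the share was 1.93% in WT and 8.68% in ACA-K.

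Of 47 other genes of the pathway, grouped by function, few lay past 1.5-fold in the mutants. In ACA-K minus WT none of the 46 compared did, in footprint level, mRNA level or TE. In AGG-OE minus WT-URA, 1 of 45 did, in TE only, beside 1.98% of all genes, namely SAN1 (YDR143C), a nuclear ubiquitin ligase for misfolded proteins, at a log2 difference of 0.65. In AGG-QC minus WT-URA, 2 of 45 were past 1.5-fold above WT-URA in footprint level, 1 in mRNA level and 3 in TE, and none below, beside 3.54%, 4.92% and 5.58% of all genes, so that the counts lay near the background and the genes are given as values only. UBI4 (YLL039C), the polyubiquitin gene, had a footprint level of 832 in WT-URA and 1361 in AGG-QC, a log2 difference of 0.71 in footprints and 0.59 in mRNA. MUB1 (YMR100W), a partner of the ubiquitin ligase that marks Rpn4 for destruction, had a difference of 0.61 in footprints and 0.63 in TE on 291 footprints in AGG-QC. ECM29 (YHL030W), which tethers the core to the regulatory particle, and TOM1 (YDR457W), a ubiquitin ligase, were past the threshold in TE, at 0.67 and 0.81. Proteins that associate with the proteasome had median differences in AGG-QC of 0.26 in footprint level, -0.03 in mRNA level and 0.25 in TE, where the members had 0.26, 0.15 and 0.12, and the 9 assembly chaperones had 0.09 in footprint level.

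Between WT-URA and WT, 12 of the 45 pathway genes were past 1.5-fold in footprint level, all of them higher in WT-URA, a smaller share than the 42.4% of all genes. In mRNA level 8 were past it above WT and 1 below, where 34.6% of all genes were. Of the 9 assembly chaperones, which help the subunits to join and then leave, 5 were past 1.5-fold in footprint level, namely POC4 (YPL144W) at 0.84, NAS2 (YIL007C) at 0.89, NAS6 (YGR232W) at 0.60, HSM3 (YBR272C) at 0.70 and RPN14 (YGL004C) at 0.72, and the median of the list was 0.60 beside 0.36 for the median gene and 0.06 for the 33 members. These 5 chaperones had footprint levels in WT from 43.5 for RPN14 to 286 for NAS6, where the 32 subunits lay between 402 and 1081. The 1400 genes as deeply covered as the members had a median of 0.07. The part of coverage in the contrast between chaperones and subunits was not tested. UBI4 had the largest difference, with a footprint level of 187 in WT and 832 in WT-URA, 2.15 in footprints and 1.71 in mRNA. UBC5 (YDR059C), a stress-induced ubiquitin-conjugating enzyme, had 65.2 and 214, a difference of 1.71. UBI4 consists of repeated ubiquitin units and UBC5 has a near-identical copy in UBC4, so both rest on the reads that map to a single place and are uncertain. HRD1 (YOL013C), a ubiquitin ligase of the endoplasmic reticulum, had 36.7 and 93.1, and a difference of 0.80 in TE, the only one of the list past 1.5-fold in that measure. HUL5 (YGL141W), a ubiquitin ligase on the proteasome, was at 0.88, DOA1 (YKL213C), a cofactor of the unfoldase Cdc48, at 0.69, UBC7 (YMR022W), a ubiquitin-conjugating enzyme of the endoplasmic reticulum, at 0.71, and PDR3 (YBL005W), a transcription factor upstream of RPN4, at 0.59.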

How the data were processed

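The data are 10 libraries, a footprint and an mRNA library for each of 5 yeast strains. Tables were assigned to strains by their names, matched to the sample titles. The authors aligned reads to assembly R63 (Bowtie 1.0.0 in the submitters' processing notes), kept unique reads, left out genes by their own filters and deposited footprint counts per codon and per gene with no scaling, with the coding length in codons, the stop codon included, as the other deposited value. The authors deposited mRNA as 1 whole number per gene, treated here as a signal.

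Levels, TE and log2 differences were computed as the report describes, for genes with at least 100 footprints in both strains. A gene was counted as past 1.5-fold at a log2 difference of 0.585 or more in size. Counting intervals of differences are exact conditional binomial (95%). The precision that depth gives follows from totals between 6011287 and 29706058 footprints. The functions were tested on simulated data. Members and lists were chosen with earlier results of these data known. All 33 members are named, with the highest and lowest in each comparison, and the pathway genes past 1.5-fold in footprint level or TE. Positions given by codon number were chosen after their values were seen. Alternatives were centring on the median gene, no minimum, leaving out the first 100 codons (25% of genes with no more than 100), a pseudo-count of 1 per codon, both together and, chosen after seeing the data, the highest codon left out and deep genes only. Symbols come from the RefSeq table, which matched 5269 of 5373 names. Promoter motifs and amino acid content were planned and not analysed here. Computations used pandas 2.3.3, scipy 1.17.1 and numpy 2.4.6, figures matplotlib 3.10.9, all in Python 3.11.15.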

Additional observations from a re-analysis of the deposited data

How the results depend on the processing

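Of 68 medians of the 33 members recomputed under alternatives, 55 moved by less than the counting tolerance, and 64 of 68 counts of members past 1.5-fold stayed at 0. Centred on the median gene, the median log2 difference was 0.25 in mRNA level for ACA-K minus WT, 0.079 in footprint level and 0.10 in mRNA level for AGG-OE minus WT-URA, 0.019 in TE for AGG-QC minus WT-URA, and -0.30 in footprint level and -0.071 in mRNA level for WT-URA minus WT. With a pseudo-count of 1 it was 0.17 in footprint level and 0.0083 in TE for AGG-QC minus WT-URA, and -0.063 in footprint level and -0.24 in TE for WT-URA minus WT. With the pseudo-count and the first 100 codons left out it was 0.0060 in TE for AGG-QC minus WT-URA, and -0.13 in footprint level and -0.40 in TE for WT-URA minus WT. Members past 1.5-fold in TE for WT-URA minus WT numbered 2 with centring, 3 without the first 100 codons, 4 with the pseudo-count and 6 with both. The sign differed in 5 of these medians, the AGG-OE footprint value and the WT-URA minus WT values in footprint (with centring and with the pseudo-count, alone or with the first 100 codons left out) and mRNA level. The footprint SD of the core without the first 100 codons was 0.27 in WT, 0.31 in WT-URA, 0.40 in ACA-K, 0.41 in AGG-QC and 0.38 in AGG-OE, and the cause was not tested. The alternatives chosen after seeing the data moved no median beyond the tolerance. No paired analysis was possible because each strain has 1 library of each kind. Without replicates, differences between single cultures cannot be separated from differences between strains.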

Other observations

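PUP3 had the largest share of footprints on its stop codon of the 33 genes in ACA-K, 143 of 4865 footprints or 2.94%, beside 52 of 5450 or 0.95% in WT, 15 of 1623 in WT-URA, 2 of 1084 in AGG-QC and 11 of 1398 in AGG-OE. The median share over the members was 0.06% in WT and 0.14% in ACA-K, and over all genes 0.05% and 0.15%. Codon 436 of RPN5, which has 446 codons with the stop, was the highest codon of that gene in the 3 plasmid libraries, with 61 footprints in WT-URA, 144 in AGG-QC and 105 in AGG-OE, or 1.87%, 4.97% and 3.01% of the gene. It was highest in neither WT nor ACA-K, where codons 307 and 128 were. These positions were picked after their values were seen.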
